A study of Mus musculus with 8 samples.

Results

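The 29 genes described here encode enzymes and regulators of cholesterol and fatty acid synthesis. They were chosen by gene symbol, with earlier results of these data known. They cover the mevalonate pathway (7 genes) and the steps from squalene to cholesterol (11 genes). They also cover regulation by sterol regulatory element-binding proteins (SREBPs) and sterol transfer (5 genes), and fatty acid synthesis (6 genes). They are 29 of the 54532 genes in the count table. All 29 passed the filter on low counts, as did 18511 genes in all, and the lowest count of any of the 29 in a tumor was 82, for Fdps.

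The tumors grew under the skin of mice from 4T1 cells, a mouse line of triple-negative breast cancer. The labels name the line 4T1, and the study's methods name 4T1-FLuc, its luciferase-carrying form, and female BALB/cJ hosts aged 6 weeks at injection. Of the 8 tumors, each from a different mouse, 4 came from mice given saline (the treatment label reads PBS control) and 4 from mice given mAb-DXd/IMQ (labelled HumCD276-Dxd/IMQ), an antibody to CD276 that carries both a topoisomerase inhibitor, DXd, and a Toll-like receptor agonist, IMQ. Per the study's methods, each of 5 courses was an intravenous dose of 16 mg/kg, 4 days apart, and tumors were taken at the study's endpoint. Per the labels, bulk libraries were made from poly-A RNA. Saline tumors 1 to 4 held 49398150, 45019927, 56388627 and 69582375 counts. The mAb-DXd/IMQ tumors 1 to 4, called treated tumors from here on, held 51625237, 46196237, 42965317 and 34591912 counts.

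Cells build cholesterol from acetyl-CoA through mevalonate, isoprenoids and squalene, and they build fatty acids from the same precursor through malonyl-CoA. Both routes are driven by SREBPs, transcription factors that are held in the endoplasmic reticulum while sterols are plentiful and are carried to the Golgi by SCAP, cleaved and released to the nucleus when sterols run low. Proliferating tumor cells draw on both routes for membranes, and other cells of a tumor, such as macrophages and adipocytes, run them too.

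The comparison of treated with saline tumors asks how the transcripts of this pathway differ after the dual-payload conjugate. Nsdhl, an enzyme that removes methyl groups from sterol intermediates, and Scd2, a desaturase that makes monounsaturated fatty acids, fell in treated tumors. Their mean levels in treated tumors were 64.4% and 66.0% of those in saline tumors. The other 27 genes did not pass the test, which asked for a false discovery rate (FDR) under 0.05 and a log2 fold change past 0.58 in either direction (edgeR, all 18511 genes tested together). In whole tumors, fewer cells of a type and less RNA per cell cannot be told apart.

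Calls were few in the whole table: 197 genes, or 1.06% of those tested, passed, 96 of them lower (0.519%) and 101 higher (0.546%). The 2 of 29 pathway genes called lower make 6.90%, a share that stands on 2 genes. With the FDR alone and no fold limit, 3 of the 29 passed (Lss besides these 2), against 1.33% of all tested genes. At an unadjusted p under 0.05, 17 of the 29 were lower, against 9.79% of all tested genes, and 1, Scap, was higher, against 9.13%. In 9 of the 29 every treated tumor lay below every saline tumor, against 7.10% of all tested genes. These 9 were Mvd, Lss, Nsdhl, Srebf2, Stard4, Acly, Elovl6, Scd1 and Scd2. Scap was the only one of the 29 with every treated tumor above every saline tumor, a pattern that 5.97% of tested genes showed. The log2 fold change was below 0 for 27 of the 29 and for 47.4% of tested genes. Over all alternatives, 25 to 28 of the 29 were below 0. The median was −0.40 over the 29, with a range from −0.90 to 0.25, and 0.022 over all tested genes.

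**Figure D1:**
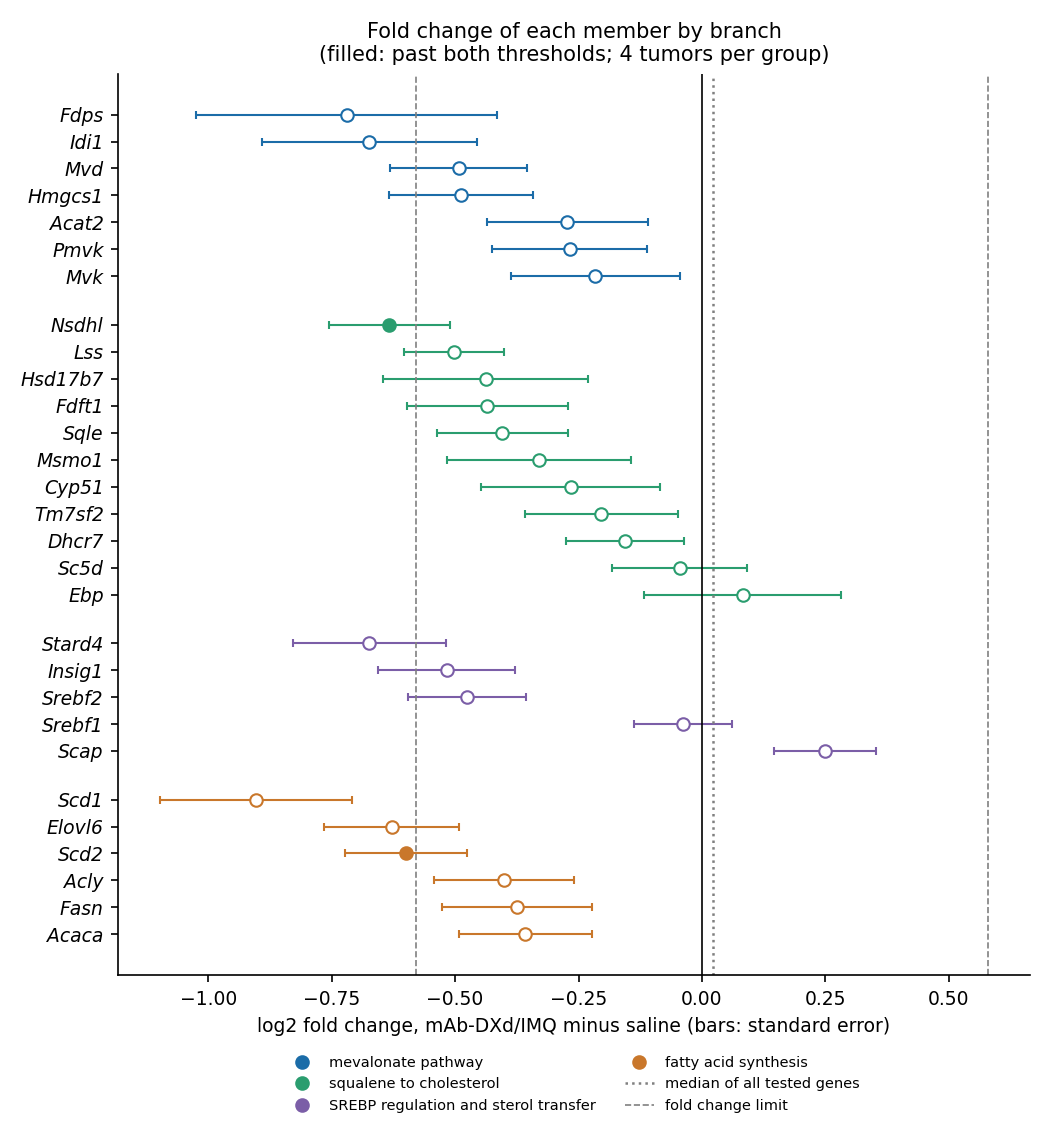
Log2 fold change of each gene, treated minus saline, with its standard error, grouped by branch (4 tumors per group, filled points passed both thresholds). Points lie left of 0 for 27 of 29 genes, and Nsdhl and Scd2 are filled.

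Both calls depended on which tumors were in the fit. When saline tumor 1, 2, 3 or 4, or treated tumor 2, 3 or 4, was left out, 0 of the 29 genes passed, and without treated tumor 1, 5 passed (Idi1, Nsdhl, Insig1, Stard4 and Scd2). Called genes in the whole table numbered 203 without saline tumor 1 and 190 without treated tumor 1, close to the 197 with all tumors. They numbered 111 without saline tumor 2, 88 without treated tumor 3 and 76 without treated tumor 2, and 12, 11 and 10 without treated tumor 4, saline tumor 4 and saline tumor 3. With 1 tumor left out, the log2 fold change of Nsdhl ran from −0.69 to −0.56 and that of Scd2 from −0.65 to −0.54.

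Gene starts were compared for what the genes share in sequence. The 29 were listed as genes of these pathways, and the part of shared motifs in their fold changes was not tested. Promoters from RefSeq (GRCm38.p6), from 250 bases before to 50 after a RefSeq start, were matched for 23 of the 29 genes, with 29 windows. Fdps, Fdft1, Sqle, Stard4, Scd1 and Scd2 were not matched. A form of the sterol regulatory element, TCACNCCAC, and the letters CCAAT and GGGCGG, bound by NF-Y and Sp1, which are known to act beside SREBPs, were searched on both strands. Shown 5′ to 3′ on the gene's strand are the starts of an early enzyme (Hmgcs1, chr13:119690101-119690400, plus strand), an enzyme of isoprenoid synthesis (Idi1, chr13:8885356-8885655, plus), the enzyme that closes the sterol rings (Lss, chr10:76531355-76531654, plus), the called gene that was matched (Nsdhl, chrX:72918271-72918570, plus), the regulator itself (Srebf2, chr15:82147019-82147318, plus) and the fatty acid synthase gene (Fasn, chr11:120824498-120824797, minus). Capitals mark every match, on either strand.
Hmgcs1: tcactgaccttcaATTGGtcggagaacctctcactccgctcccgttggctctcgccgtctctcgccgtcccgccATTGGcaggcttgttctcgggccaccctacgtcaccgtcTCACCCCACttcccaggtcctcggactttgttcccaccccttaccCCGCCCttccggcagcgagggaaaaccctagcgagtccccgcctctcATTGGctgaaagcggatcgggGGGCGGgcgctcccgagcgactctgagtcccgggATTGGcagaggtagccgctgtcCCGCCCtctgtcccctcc
Idi1: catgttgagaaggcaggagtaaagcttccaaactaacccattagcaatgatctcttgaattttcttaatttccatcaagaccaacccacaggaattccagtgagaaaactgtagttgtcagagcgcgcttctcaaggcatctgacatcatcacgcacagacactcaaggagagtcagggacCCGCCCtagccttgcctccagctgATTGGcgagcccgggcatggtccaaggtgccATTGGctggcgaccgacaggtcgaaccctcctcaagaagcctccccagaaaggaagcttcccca
Lss: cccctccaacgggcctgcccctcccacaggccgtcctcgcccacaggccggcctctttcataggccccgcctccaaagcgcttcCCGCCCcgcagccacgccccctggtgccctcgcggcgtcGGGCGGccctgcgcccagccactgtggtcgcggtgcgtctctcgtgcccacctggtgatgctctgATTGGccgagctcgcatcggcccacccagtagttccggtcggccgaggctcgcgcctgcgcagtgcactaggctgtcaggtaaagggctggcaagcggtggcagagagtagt
Nsdhl: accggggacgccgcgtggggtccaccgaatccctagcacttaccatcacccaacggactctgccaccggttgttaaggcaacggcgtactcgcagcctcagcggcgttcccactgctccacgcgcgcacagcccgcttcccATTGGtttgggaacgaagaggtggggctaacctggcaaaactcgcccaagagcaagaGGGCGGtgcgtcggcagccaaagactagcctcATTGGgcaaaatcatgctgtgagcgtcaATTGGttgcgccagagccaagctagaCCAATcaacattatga
Srebf2: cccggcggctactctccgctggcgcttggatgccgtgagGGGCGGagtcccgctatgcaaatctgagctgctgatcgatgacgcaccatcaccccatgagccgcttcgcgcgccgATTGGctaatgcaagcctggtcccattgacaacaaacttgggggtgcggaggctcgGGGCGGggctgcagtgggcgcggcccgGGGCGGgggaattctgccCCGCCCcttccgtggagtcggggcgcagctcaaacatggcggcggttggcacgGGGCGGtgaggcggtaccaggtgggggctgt
Fasn: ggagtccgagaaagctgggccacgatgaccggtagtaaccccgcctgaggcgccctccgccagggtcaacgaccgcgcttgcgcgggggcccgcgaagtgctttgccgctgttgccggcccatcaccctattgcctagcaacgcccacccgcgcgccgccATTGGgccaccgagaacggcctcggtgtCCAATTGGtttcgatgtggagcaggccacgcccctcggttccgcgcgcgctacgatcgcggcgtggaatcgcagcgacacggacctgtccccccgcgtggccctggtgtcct

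TCACNCCAC was found in 1 of the 23 genes, Hmgcs1, beginning 137 bases before the start, against 1.44% of all genes with a window and 1.43% of the tested ones. CCAAT was found in 19 of the 23 genes (82.6%), against 41.1% of all genes with a window and 42.2% of the tested ones. Nsdhl and Hmgcs1 each hold 4 copies, and in Fasn a copy on the plus strand overlaps a copy on the minus strand. GGGCGG was found in 19 of the 23 genes (82.6%), against 38.2% of all genes with a window and 63.8% of the tested ones. Srebf2 holds 5 copies of it and Fasn none. Elovl6 and Acaca hold none of the motifs in these windows. The Acaca window (chr11:84195188-84195487, plus strand) lies inside the annotated gene, which begins at 84129672. The Tm7sf2 window (chr19:6067801-6068100, minus strand) also lies inside its gene, which begins at 6077197. Other forms of the sterol regulatory element were not searched, so a window without TCACNCCAC may hold another form. A match describes letters in a window and says nothing of binding.

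Srebf2 encodes the SREBP that acts mainly on sterol genes. It stood at 254, 200, 226 and 185 CPM (counts scaled to library size, TMM-normalized) in saline tumors 1 to 4 and at 163, 152, 162 and 145 CPM in treated tumors 1 to 4. The treated tumors lay close together, and all were below the lowest saline tumor. The means were 216 ± 30.6 CPM and 156 ± 8.68 CPM (SD, n = 4), and the log2 fold change of −0.48 (SE 0.12) missed the threshold at an adjusted p of 0.0702. Srebf1, which encodes the SREBPs that act mainly on fatty acid genes, was at 104, 113, 99.8 and 106 CPM in saline tumors and at 95.1, 105, 97.4 and 114 CPM in treated tumors. The groups overlapped throughout, and the highest Srebf1 level of the 8 tumors was in treated tumor 4. Its log2 fold change was −0.038 (SE 0.099, adjusted p 0.875), it ran from −0.087 to −0.0050 with 1 tumor left out, and its sign turned with upper-quartile scaling, to 0.011.

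Scap, which escorts SREBPs to the Golgi, was the gene with the highest fold change of the 29. Its level was 66.7, 60.1, 66.1 and 64.2 CPM in saline tumors and 71.8, 75.2, 87.9 and 70.7 CPM in treated tumors. Each treated tumor lay above all saline tumors, and treated tumor 3 stood highest. Scap had a log2 fold change of 0.25 (SE 0.10, adjusted p 0.223). Insig1, which holds SCAP and SREBPs in the endoplasmic reticulum and is itself an SREBP target, was at 78.5, 94.1, 87.8 and 67.0 CPM in saline tumors and at 69.5, 55.9, 51.2 and 52.2 CPM in treated tumors. The groups met only where treated tumor 1 passed saline tumor 4. Its log2 fold change was −0.52 (SE 0.14, adjusted p 0.0825).

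Stard4, a carrier of cholesterol between membranes and an SREBP target, had the lowest fold change of the regulatory and transfer genes. It was at 77.9, 68.9, 69.5 and 57.1 CPM in saline tumors and at 56.2, 41.1, 36.0 and 38.1 CPM in treated tumors. The groups did not overlap, although treated tumor 1 came within 1 CPM of saline tumor 4. The log2 fold change of −0.67 (SE 0.15) was past the fold limit, and its adjusted p of 0.0573 was above the threshold. Over these 5 genes the median log2 fold change was −0.48, and none was called. At an unadjusted p under 0.05, 3 of 5 were lower (9.79% of all tested genes were) and 1, Scap, was higher (9.13%). Stard4 was called in 6 of 23 alternative settings, which were DESeq2, edgeR with library size alone, with no filter, with a filter at 1 CPM and with the newer quasi-likelihood fit, and edgeR without treated tumor 1. Insig1 was called in 1, without treated tumor 1.

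**Figure D2:**
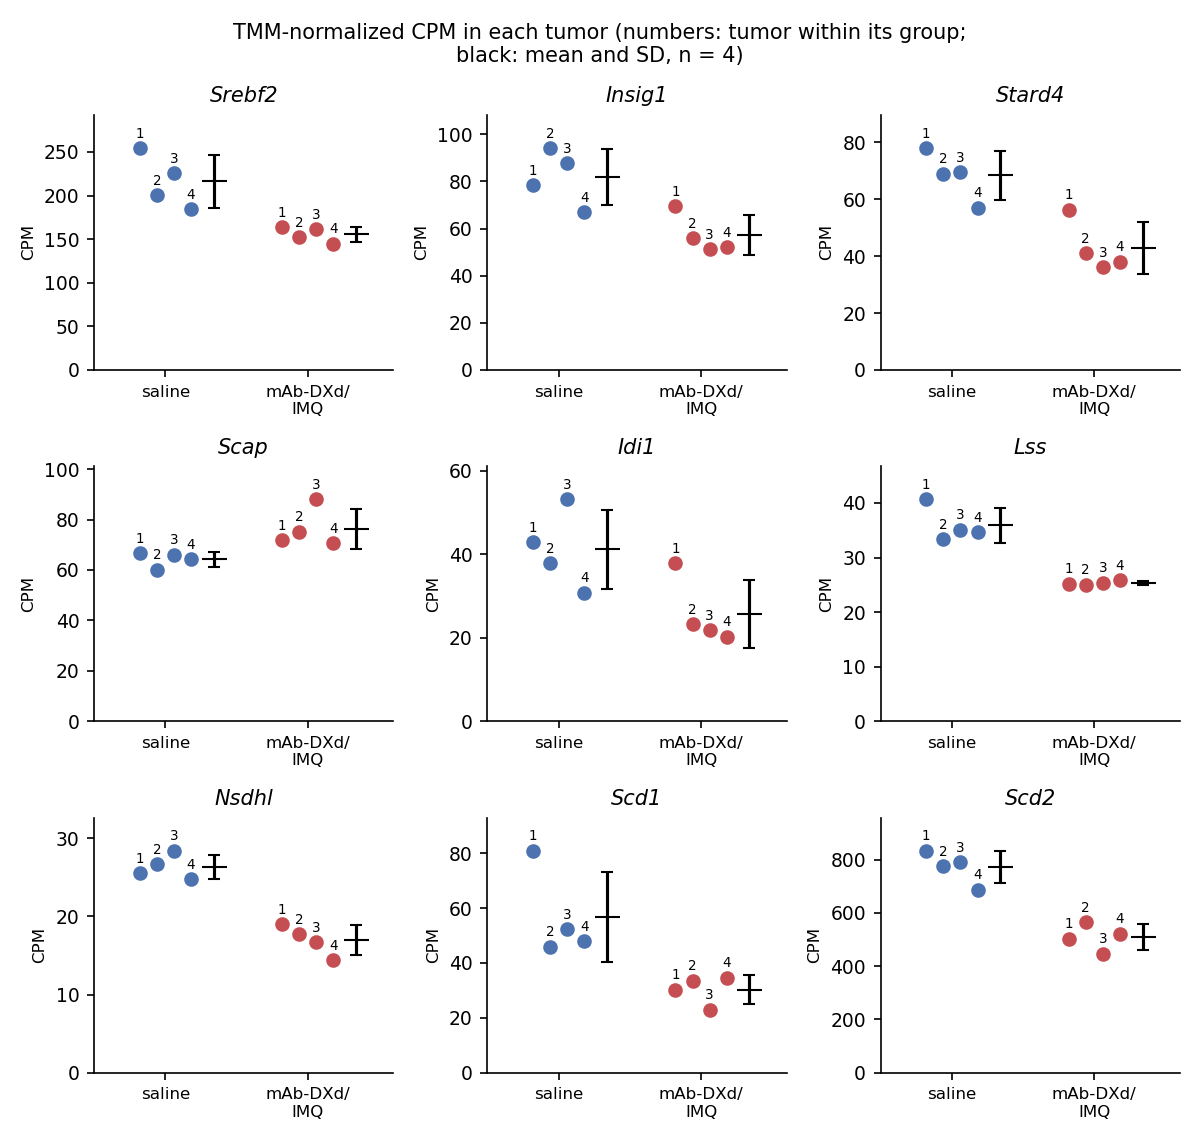
CPM of 9 of the genes in each tumor, on axes that start at 0, with the mean and SD of each group (n = 4). Nsdhl, Lss, Scd1, Scd2, Srebf2 and Stard4 show treated tumors below all saline tumors, Scap shows them above, and treated tumor 1 stands apart in Idi1.

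The mevalonate pathway turns acetyl-CoA into isoprenoids. All 7 of its genes had a log2 fold change below 0, with a median of −0.49, and none was called by edgeR. At an unadjusted p under 0.05, 4 of the 7 were lower (9.79% of all tested genes were), and DESeq2 called Idi1. Acat2, which joins acetyl-CoA units at its start, stood at 35.9 ± 5.35 CPM in saline and 29.7 ± 6.43 CPM in treated tumors (SD, n = 4), a log2 fold change of −0.27 (SE 0.16, adjusted p 0.399) that was −0.43 without treated tumor 1 and −0.18 without treated tumor 4. Hmgcs1, which makes HMG-CoA, was at 97.6, 75.1, 87.4 and 71.6 CPM in saline tumors and at 72.3, 61.0, 54.5 and 48.7 CPM in treated tumors. Treated tumor 1 sat just above saline tumor 4, and the remaining treated tumors were below all saline tumors. Hmgcs1 had a log2 fold change of −0.49 (SE 0.15, adjusted p 0.109).

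Mvk, the kinase of mevalonate, had the highest fold change of this branch. It was at 25.4, 22.1, 24.3 and 19.3 CPM in saline tumors and at 26.3, 18.2, 18.2 and 15.6 CPM in treated tumors. Treated tumor 1 was the highest of all 8 tumors and the remaining treated tumors were the lowest. Its log2 fold change was −0.22 (SE 0.17, adjusted p 0.533), with −0.39 when treated tumor 1 was left out and −0.11 when treated tumor 4 was. Pmvk, which adds the next phosphate, had a log2 fold change of −0.27 (SE 0.16, adjusted p 0.386), or −0.15 without treated tumor 3. Mvd, which makes isopentenyl diphosphate, was at 21.4, 27.5, 25.5 and 19.95 CPM in saline tumors and at 18.2, 14.9, 17.4 and 16.5 CPM in treated tumors. It was the only gene of the branch whose groups did not overlap, and its log2 fold change was −0.49 (SE 0.14, adjusted p 0.0960).

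Idi1 interconverts the isoprene units that are joined into longer chains. It was at 42.9, 37.8, 53.1 and 30.9 CPM in saline tumors and at 37.9, 23.2, 21.9 and 20.2 CPM in treated tumors. Treated tumor 1 lay among the saline tumors, and the rest of the treated tumors lay below all of them. The log2 fold change of −0.67 (SE 0.22) had an adjusted p of 0.132, and without treated tumor 1 Idi1 was called, with a log2 fold change of −0.92. Fdps, which makes farnesyl diphosphate, had the lowest fold change of the branch, on the lowest counts of the 29 genes. Its level was 6.39, 3.05, 4.37 and 3.13 CPM in saline tumors and 1.69, 2.87, 3.19 and 2.53 CPM in treated tumors. Saline tumor 1 was high and treated tumor 1 low, with the others between 2.53 and 4.37 CPM. Fdps had a log2 fold change of −0.72 (SE 0.30, adjusted p 0.233), or −0.46 without saline tumor 1. In the annotation, 26.7% of the exon bases of Fdps are shared with the annotated gene Gm43738 on the same strand, which held 1 count over all tumors.

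From squalene to cholesterol, 10 of 11 genes had a log2 fold change below 0, with a median of −0.33, and 1, Nsdhl, was called. Of all tested genes, 0.519% were called lower. Nsdhl (chrX:72918557-72958514, plus strand) acts with Msmo1 and Hsd17b7 to remove methyl groups from sterol intermediates. It was at 25.5, 26.6, 28.4 and 24.8 CPM in saline tumors and at 19.0, 17.7, 16.7 and 14.4 CPM in treated tumors. The groups were far apart for their spread, with no tumor between 19.0 and 24.8 CPM. Mean levels were 26.3 ± 1.56 CPM and 17.0 ± 1.93 CPM (SD, n = 4), and Nsdhl fell by 0.63 on the log2 scale (SE 0.12, adjusted p 0.0391), lower in 4 of 4 treated tumors. Over its 23 alternative settings the adjusted p ran from 0.00022 to 1, and Nsdhl was called in 13.

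Lss, which closes squalene epoxide into lanosterol, was at 40.6, 33.4, 35.1 and 34.6 CPM in saline tumors and at 25.2, 25.0, 25.4 and 25.8 CPM in treated tumors. The treated tumors were nearly level, with an SD of 0.347 CPM, and all lay below the saline tumors. Its adjusted p was 0.0433, and its log2 fold change of −0.50 (SE 0.10) missed the fold limit. Sqle, the epoxidase that acts before it, was at 113, 94.9, 110 and 81.7 CPM in saline tumors and at 83.3, 74.2, 81.0 and 63.4 CPM in treated tumors. Only saline tumor 4 and treated tumor 1 crossed. Sqle had a log2 fold change of −0.40 (SE 0.13, adjusted p 0.135). Fdft1, which makes squalene, had a log2 fold change of −0.43 (SE 0.16, adjusted p 0.184). It shares 18.3% of its exon bases with Ctsb on the opposite strand, a gene with 435925 counts against 22528 for Fdft1, and the strandedness of the libraries is not given in the sources used here.

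Hsd17b7, the ketone reductase of the demethylation step, was at 27.1, 22.9, 28.9 and 20.3 CPM in saline tumors and at 15.7, 16.1, 27.1 and 14.3 CPM in treated tumors. Treated tumor 3 lay among the saline tumors and the remaining treated tumors lay below them. Hsd17b7 had a log2 fold change of −0.44 (SE 0.21, adjusted p 0.283), which was −0.69 without treated tumor 3 and −0.33 at its smallest, without treated tumor 4. Msmo1, the oxygenase of the same step, went from 90.7 ± 25.1 CPM in saline to 72.2 ± 10.8 CPM in treated tumors (SD, n = 4), a log2 fold change of −0.33 (SE 0.19, adjusted p 0.371) that was −0.17 without saline tumor 1. Cyp51, which demethylates lanosterol, had a log2 fold change of −0.27 (SE 0.18, adjusted p 0.463), or −0.16 without saline tumor 1 or treated tumor 4. The sterol reductase gene Tm7sf2 had a log2 fold change of −0.20 (SE 0.15, adjusted p 0.513), or −0.11 without saline tumor 3, and it shares 12.1% of its exon bases with Vps51 on the same strand.

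The enzymes of the last steps showed the smallest differences of the branch. Ebp, the sterol isomerase, was at 59.0, 57.6, 70.2 and 72.7 CPM in saline tumors and at 87.6, 83.6, 43.5 and 60.0 CPM in treated tumors. Treated tumors 1 and 2 were the highest of the 8 and treated tumor 3 the lowest, so the groups overlapped on both sides. Ebp had a log2 fold change of 0.083 (SE 0.20, adjusted p 0.865), which turned to −0.012 with a correction for gene length, to −0.060 without treated tumor 1 and to −0.027 without treated tumor 2. Sc5d, a sterol desaturase, was at 52.7 ± 8.80 CPM and 51.1 ± 5.57 CPM (SD, n = 4), with a log2 fold change of −0.045 (SE 0.14, adjusted p 0.898). Its sign turned with upper-quartile scaling, to 0.00089, and without saline tumor 1 (0.032), saline tumor 3 (0.013) or treated tumor 4 (0.029). Dhcr7, the reductase of the final step, had a log2 fold change of −0.16 (SE 0.12, adjusted p 0.521), which ran from −0.24 without treated tumor 1 to −0.087 without treated tumor 3.

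**Figure D3:**
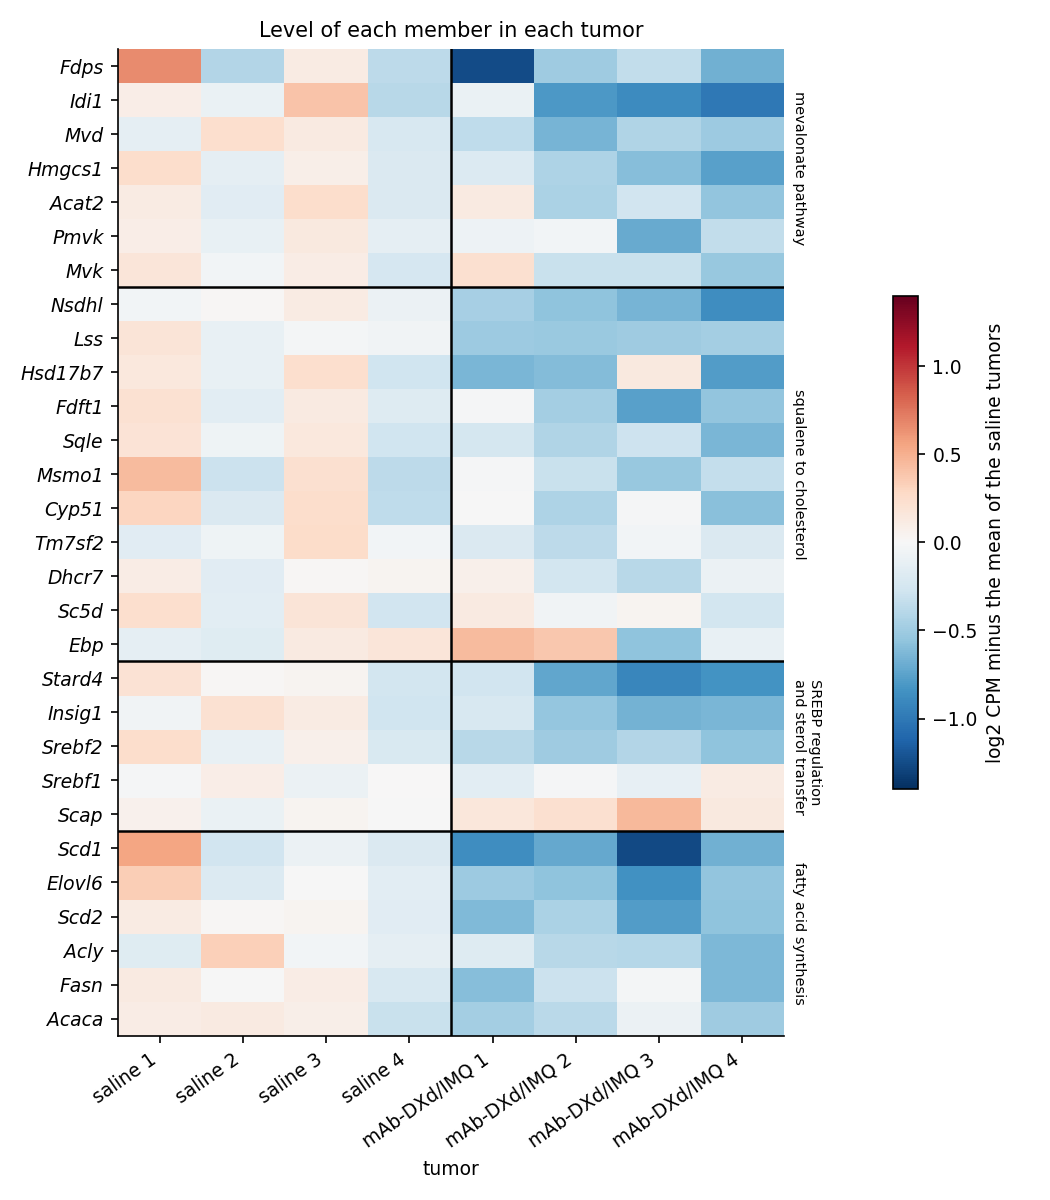
Log2 CPM of each gene in each tumor, minus the mean of the saline tumors, with the branches separated by lines. Blue marks levels below the saline mean, which fill most of the treated columns, and treated tumor 1 is paler than the other treated tumors in both sterol branches.

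In fatty acid synthesis all 6 genes had a log2 fold change below 0 with an unadjusted p under 0.05, 4 did not overlap between groups, and 1, Scd2, was called by edgeR. Of all tested genes, 9.79% were lower at that p, 7.10% had every treated tumor below every saline tumor and 0.519% were called lower. Scd1 and Elovl6 were each called in 5 of 23 alternative settings, which were DESeq2, the newer and the robust quasi-likelihood fits of edgeR, and edgeR with no filter or with a filter at 1 CPM. The median log2 fold change was −0.50. Scd2 (chr19:44293676-44306864, plus strand) desaturates fatty acids and is the form of stearoyl-CoA desaturase found widely outside the liver. It was at 833, 776, 791 and 687 CPM in saline tumors and at 503, 565, 447 and 522 CPM in treated tumors. More than 100 CPM separated the lowest saline from the highest treated tumor. Mean levels were 772 ± 61.2 CPM and 509 ± 48.6 CPM (SD, n = 4), and Scd2 fell by 0.60 on the log2 scale (SE 0.12, adjusted p 0.0451), lower in 4 of 4 treated tumors. Its fold change lies close to the limit of 0.58. It was −0.55 with upper-quartile scaling and −0.57 with library size alone, and the call was lost with both. With a correction for gene length the log2 fold change was −0.59, still past the limit, and the adjusted p was 0.0741. Over its 23 alternative settings the adjusted p ran from 0.00010 to 1, with calls in 9.

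Scd1, the related desaturase, had the lowest fold change of the 29 genes. It was at 80.8, 45.9, 52.3 and 47.9 CPM in saline tumors and at 30.2, 33.6, 22.96 and 34.6 CPM in treated tumors. The groups did not overlap, and saline tumor 1 stood well above the rest. The log2 fold change of −0.90 (SE 0.19) had an adjusted p of 0.0517 and was −0.69 at its smallest with 1 tumor left out. Elovl6, which lengthens the palmitate that desaturases act on, was at 123, 85.4, 97.1 and 87.5 CPM in saline tumors and at 68.5, 65.6, 54.0 and 66.3 CPM in treated tumors. Here too the groups were apart and saline tumor 1 was the highest. Elovl6 had a log2 fold change of −0.63 (SE 0.14, adjusted p 0.0518).

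Acly, which makes cytosolic acetyl-CoA from citrate for both routes, was at 196, 279, 214 and 203 CPM in saline tumors and at 195, 169, 168 and 143 CPM in treated tumors. Treated tumor 1 lay just below saline tumor 1, and saline tumor 2 stood above the rest. Acly had a log2 fold change of −0.40 (SE 0.14, adjusted p 0.163). Fasn, the fatty acid synthase, was at 393, 359, 388 and 309 CPM in saline tumors and at 240, 292, 353 and 233 CPM in treated tumors. Treated tumor 3 passed saline tumor 4, the only crossing of the groups. Fasn had a log2 fold change of −0.38 (SE 0.15, adjusted p 0.216).

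Acaca, which makes malonyl-CoA, had the highest fold change of the fatty acid branch. It was at 71.9, 72.8, 71.1 and 53.9 CPM in saline tumors and at 48.2, 51.4, 63.3 and 47.6 CPM in treated tumors. The groups crossed where treated tumor 3 passed saline tumor 4. Acaca had a log2 fold change of −0.36 (SE 0.13, adjusted p 0.186). It was −0.24 with a correction for gene length and −0.23 at its smallest over all alternatives.

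Levels of different genes were compared per kilobase of gene length. On this scale Scd2 was the highest of the 29 in both groups, at 142 CPM per kb in saline and 93.4 CPM per kb in treated tumors. Acly came next in both groups, at 42.2 and 32.0 CPM per kb. Fasn followed at 33.1 CPM per kb in saline tumors, ahead of Srebf2 at 30.1 and Ebp at 28.1. In treated tumors Ebp was at 29.7 CPM per kb and passed both, with Fasn at 25.5 and Srebf2 at 21.6. Scd2 stood at 12.1 times the level of Scd1 per length in saline tumors and 14.9 times in treated tumors. The lowest levels per length were those of Tm7sf2, at 2.13 and 1.85 CPM per kb, and Fdps, at 1.01 and 0.611 CPM per kb. Both share exon bases with another annotated gene on the same strand. How reads in shared bases were counted is not given in the sources used here.

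**Figure D4:**
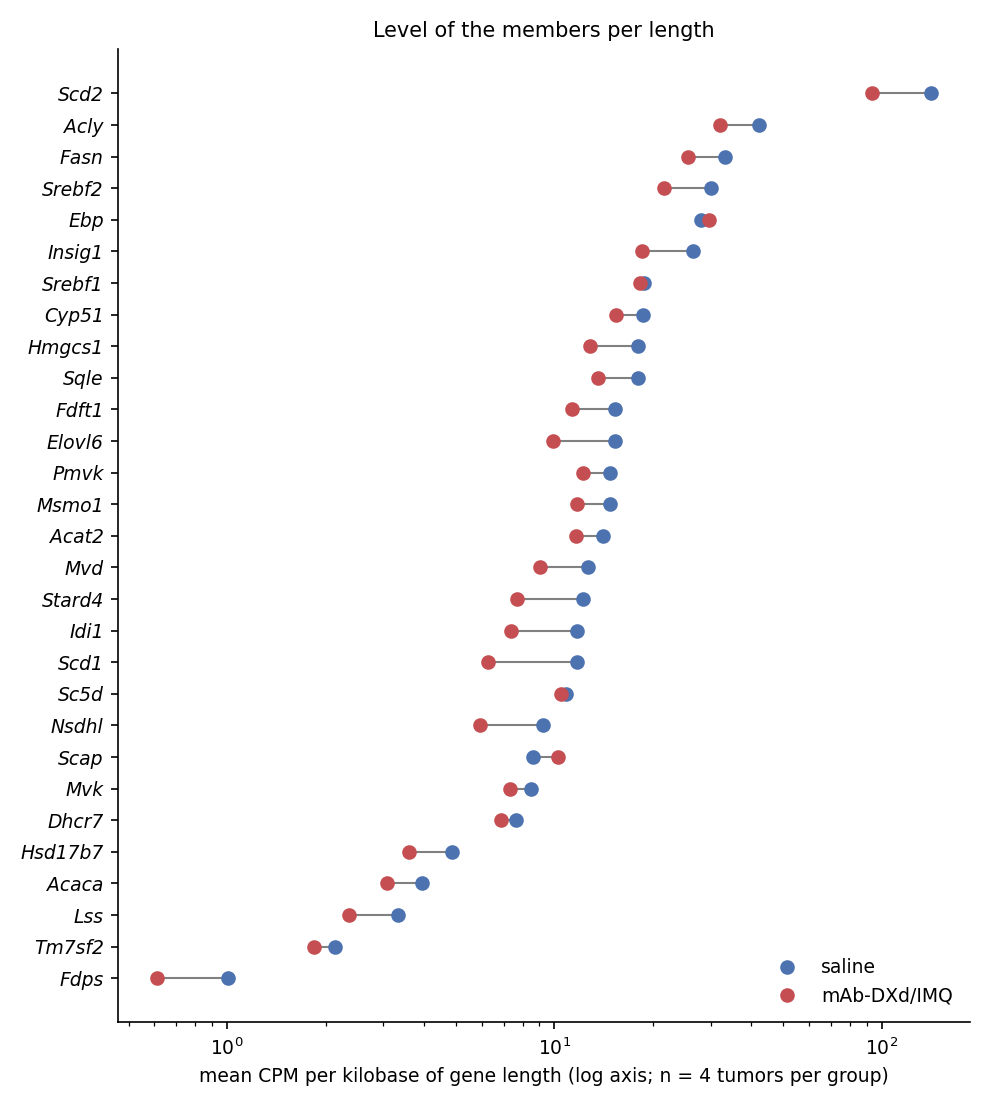
Mean CPM per kilobase of gene length of each gene in saline and treated tumors (n = 4 each, log axis), ordered by the saline level. Scd2 stands apart at 142 and 93.4 CPM per kb, and Fdps is lowest.

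The tumors of a group differed from each other across the 29 genes. Relative to the mean of the saline tumors, the median log2 level of the 29 genes was 0.12, −0.10, 0.11 and −0.20 in saline tumors 1 to 4 and −0.20, −0.44, −0.41 and −0.56 in treated tumors 1 to 4. Saline tumor 4 and treated tumor 1 were thus level on this measure. Saline tumor 1 was the highest saline tumor for 17 of 29 genes and saline tumor 4 the lowest for 19. Treated tumor 1 was the highest treated tumor for 18 of 29 genes. Its place differed by branch. Its median was −0.092 for the mevalonate genes and −0.019 for the genes from squalene to cholesterol, above the other treated tumors in both. For SREBP regulation and sterol transfer it was −0.22, again above the other treated tumors and level with saline tumor 4 (−0.22). For the fatty acid genes it was −0.55, between −0.42 in treated tumor 2 and −0.59 in treated tumors 3 and 4, and the medians of the saline tumors ran from −0.18 to 0.12. That difference between branches was not tested.

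**Figure D5:**
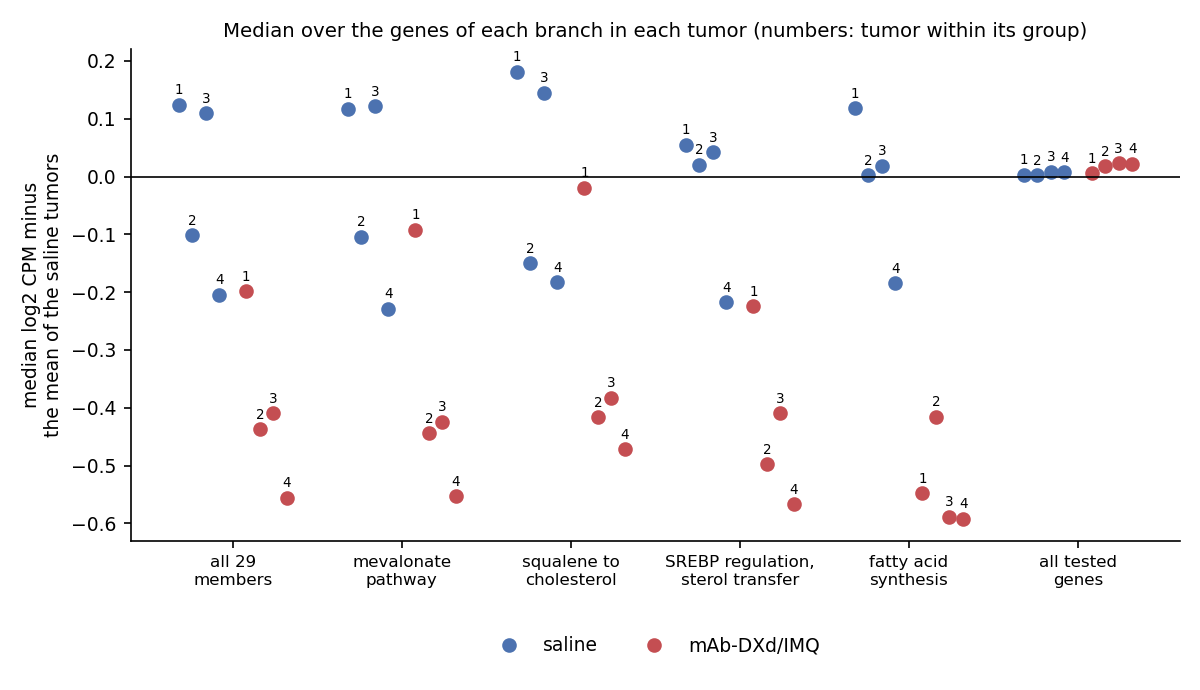
Median over the genes of each branch, and over all tested genes, of log2 CPM minus the mean of the saline tumors, for each tumor. Treated tumor 1 lies among the saline tumors in the mevalonate branch (−0.092) and the squalene to cholesterol branch (−0.019), and below all of them in fatty acid synthesis (−0.55).

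Other genes of sterol metabolism did not lie to the same side. Among 12 tested genes of sterol and isoprenoid metabolism outside the 29 (of 13 listed), 6 had a log2 fold change below 0 and 6 above, with a median of −0.0054 that turned with upper-quartile scaling (0.041) and with library size alone (0.022), and 1, Tmem97, was called higher. Tmem97, a sterol-binding membrane protein that acts on the cholesterol transporter Npc1, was at 24.004, 26.5, 31.0 and 22.017 CPM in saline tumors and at 54.4, 40.0, 51.4 and 43.3 CPM in treated tumors. Every treated tumor lay above every saline tumor, and Tmem97 rose by 0.87 on the log2 scale (SE 0.14, adjusted p 0.0219). The call was lost without saline tumor 3 (adjusted p 0.0658), saline tumor 4 (0.0957), treated tumor 3 (0.0534) or treated tumor 4 (0.0694). Replicate number as a block (0.0786) and glmTreat, which tests against the fold limit (0.751), also lost it. Corrections for gene length (0.0581), for length and GC, and for length with the block lost it too. Over 23 settings the adjusted p ran from 1.5e-05 to 0.751 and the log2 fold change from 0.75 to 0.97. The most abundant genes of the list were Mbtps1, a protease that cleaves SREBPs (log2 fold change −0.12), Erlin2 (−0.13) and the sterol reductase gene Lbr (0.069).

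Among 16 tested lipogenic genes outside the 29 (of 17 listed), 10 had a log2 fold change below 0 and none was called by edgeR. Lower at an unadjusted p under 0.05 were 2 of the 16 (9.79% of all tested genes were), and the median was −0.11. The most abundant were the desaturase gene Fads1 (log2 fold change −0.35, adjusted p 0.341), the acyl-CoA synthetase gene Acsl3 (0.16) and the elongase gene Elovl5 (0.018). None of 13 oxysterol, LXR and cholesterol efflux genes was called by edgeR, with 8 below 0, 4 lower at an unadjusted p under 0.05 and a median of −0.058. The most abundant of these were Npc2, which moves cholesterol out of lysosomes (−0.058), Soat1, which esterifies cholesterol (0.048), and Nr1h2, which encodes an LXR (−0.26). Of 11 tested fatty acid oxidation genes (of 12 listed), 8 were below 0, none was called by edgeR, 2 were lower at an unadjusted p under 0.05, and the median was −0.20. The most abundant were Acadl (0.054), Hadha (−0.068) and Cpt1a, the gate of fatty acid entry into mitochondria (−0.76, adjusted p 0.218).

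Markers of the cells that a tumor can hold were summed per tumor, since several of these cells express the 29 genes. Adipocyte markers had a log2 fold change below 0 in 11 of 11 tested genes (of 14 listed), with a median of −0.58 and none called. Their summed level was 57.4, 41.6, 45.2 and 66.3 CPM in saline tumors and 55.7, 48.1, 29.4 and 47.5 CPM in treated tumors, and Fabp4 was the most abundant at 21.6 CPM. The sums overlapped between groups. Of the defining markers, Adipoq, Plin1 and Cidec were at 0 counts in saline tumor 2, while Fabp4 (23.3 CPM), Lipe (14.7 CPM) and Pparg (1.35 CPM) were detected in it. The part of adipocytes in the result was not tested. Sebaceous gland markers, which include the lipogenic gene Scd3, were low, with sums of 6.09 to 19.4 CPM over the 8 tumors, 3 of 8 genes tested, 1 below 0, none called, and Scd3 highest at 3.94 CPM.

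Tumor epithelial markers, the compartment of the 4T1 cells, had a log2 fold change above 0 in 8 of 8 tested genes (of 9 listed), with a median of 0.29 and none called. Their sums were 2866, 2105, 2908 and 2638 CPM in saline tumors and 4154, 3197, 2398 and 2448 CPM in treated tumors, with Krt18 highest at 678 CPM. All 12 proliferation genes were above 0, with a median of 0.25, none called and 4 higher at an unadjusted p under 0.05 (9.13% of all tested genes were), and Top2a (0.27), Mki67 (0.22) and Mcm6 (0.13) were the most abundant. The part of tumor cell number or proliferation in the result was not tested.

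Lymphocyte markers had 6 of 7 tested genes (of 8 listed) below 0 and a median of −0.98. Cd4 (log2 fold change −1.91, adjusted p 0.0201), Cd8a (−1.22, adjusted p 0.0201) and Cd2 (−1.44, adjusted p 0.0458) fell. Their sums were 51.1, 70.7, 72.8 and 69.5 CPM in saline tumors and 36.6, 35.4, 25.5 and 35.6 CPM in treated tumors, with no overlap and Cd8a highest at 24.7 CPM. Neutrophil markers had 4 of 5 tested genes (of 6 listed) below 0, a median of −0.80 and 1 call, Csf3r (−0.80, adjusted p 0.0402). Their sums were 225, 85.3, 93.2 and 126 CPM in saline tumors and 34.5, 49.9, 52.7 and 70.04 CPM in treated tumors, again with no overlap, and S100a9 was highest at 34.98 CPM. The part of lymphocytes and neutrophils in the values of the 29 genes was not tested. The calls of Cd4 and Cd8a were lost without saline tumor 3, saline tumor 4 or treated tumor 4, that of Cd2 when any of the 8 tumors was left out, and that of Csf3r when any but treated tumor 1 was. With all tumors, Cd2 was also lost with library size alone (adjusted p 0.0523), and Csf3r with library size alone (0.0601) and upper-quartile scaling (0.0501). None of these 4 genes was called with glmTreat or with replicate number as a block, where the adjusted p of Cd4 was 0.0962 and 0.0695 and that of Cd8a 0.167 and 0.0815. Over all alternatives the log2 fold change of Cd4 ran from −2.09 to −1.77 and that of Cd8a from −1.36 to −1.11. That of Cd2 ran from −1.69 to −1.27 and that of Csf3r from −0.87 to −0.68.

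Macrophage markers were below 0 in 8 of 8 genes, with a median of −0.30 and none called, and in 6 of 8 with upper-quartile scaling. Their sums were 1176, 6217, 2767 and 3400 CPM in saline tumors and 3528, 2555, 3224 and 2419 CPM in treated tumors, with Lyz2 highest at 1595 CPM. Saline tumor 1, where 17 of the 29 genes were highest among saline tumors, had the lowest macrophage sum and the highest neutrophil sum. Keratinocyte markers were above 0 in 7 of 7 tested genes (of 10 listed), with a median of 0.71 and Krt14 highest at 156 CPM. Their sums were 211, 40.2, 158 and 110 CPM in saline tumors and 225, 531, 227 and 110 CPM in treated tumors. The groups overlapped, and treated tumor 2 stood highest. Krt5 was at 22.1, 0, 6.81 and 0.117 CPM in saline tumors and at 0.206, 112, 1.05 and 0.393 CPM in treated tumors. Endothelial markers were above 0 in 7 of 7 (median 0.56, Pecam1 highest at 66.2 CPM) and fibroblast markers in 4 of 8 (median 0.034, Col1a1 highest at 2534 CPM). Skeletal muscle markers were below 0 in 5 of 7 (median −0.36, Acta1 highest at 96.1 CPM). None of these lists held a called gene, and their part in the result was not tested.

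Fold changes also moved with gene length over all 18511 tested genes, with a Spearman rho of −0.212 across genes, which are not independent replicates. The 29 genes are longer than most, with a median length of 5104 bases against 3516, and 21 of 29 are above the median of tested genes. After a correction for length, rho was −0.0339, the median log2 fold change of the 29 genes was −0.40, 28 of 29 were below 0, and 1, Nsdhl, was called.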

How the data were processed

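Bulk RNA-seq of 8 tumors was analysed, 4 from saline and 4 from mAb-DXd/IMQ mice, grouped by the sample labels. The deposited table holds a raw read count for each gene in each tumor, made by the authors, with gene coordinates and lengths. The submitters' processing notes name HISAT2, HISAT, TopHat2 and the build mm39, but 98.3% of 54409 genes shared with GENCODE release 21 had the same start and end, so coordinates are given in GRCm38.

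Genes were kept by filterByExpr (minimum count 10, minimum total 15), normalized by TMM and compared between groups in edgeR (quasi-likelihood F-test, no covariate), with Benjamini-Hochberg adjustment over all 18511 tested genes. Calls needed both an FDR under 0.05 and a log2 fold change past 0.58 in either direction. SEs are approximate, each coefficient divided by the square root of its F value. The floor of 3 counts was 0.0439 to 0.0843 CPM and covers counting error only. Versions were edgeR 4.0.16, DESeq2 1.42.0 and limma 3.58.1 in R 4.3.3, and pandas 2.3.3 and matplotlib 3.10.9 in Python 3.11.15.

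The 29 genes and the other lists were chosen with earlier results of these data known, so lists are described by counts and medians with no test. Named were all 29 genes, of each pathway list the called genes and the 3 with the highest mean CPM, and of each marker list the called genes and the most abundant. Adipoq, Plin1, Cidec, Lipe, Pparg and Krt5 were named besides, after their values were seen. Alternatives were other scalings, filters and tests, each tumor left out, replicate number as a block, and gene length. A correction for length and GC, length with the block, and the alternatives for Tmem97, Cd4, Cd8a, Cd2 and Csf3r were added after seeing the data. Listed genes Faxdc2 (no match), Thrsp and Ppara (low counts) were left out.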

Additional observations from a re-analysis of the deposited data

Results flagged for a closer look

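In 3 of 58 sets of 4 tumors examined for the 29 genes, and in 5 of 82 sets when summed markers, total counts and TMM factors are added, a tumor stood far from the rest of its group by Dixon's test, which chance gives in about 1 of 20. Idi1 was at 37.9 CPM in treated tumor 1, with the other treated tumors at 20.2 to 23.2 CPM. Hsd17b7 was at 27.1 CPM in treated tumor 3, with the others at 14.3 to 16.1 CPM. Acaca was at 53.9 CPM in saline tumor 4, with the other saline tumors at 71.1 to 72.8 CPM. Summed lymphocyte markers were at 51.1 CPM in saline tumor 1, against 69.5 to 72.8 CPM in the other saline tumors, and at 25.5 CPM in treated tumor 3, against 35.4 to 36.6 CPM in the other treated tumors.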

How the results depend on the processing

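Whole-tumor RNA at the endpoint gives no cell source, the labels give no sequencing batch, and each group holds 4 tumors. Of 667 log2 fold changes of these genes under the alternatives, 657 kept their direction and 613 also kept their side of both thresholds. The median over the 29 genes and over each branch moved by less than the spread between tumors under every alternative, and 25 to 28 of the 29 were below 0. The cause of the changes below was not tested.

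The count of called genes (197) was 358 with no filter beyond 1 count, 787 with DESeq2, 7 with glmTreat, which tests against the fold limit, 122 with the gene length correction and 125 with the length and GC correction added after seeing the data. It ran from 10 to 203 with 1 tumor left out. Upper-quartile scaling gave 145 higher and 73 lower (33.5% lower, against 48.7%). The count of called genes among the 29 (2) was 1 with upper-quartile scaling, 5 with no filter, 5 with at least 1 CPM in 4 tumors, 6 with DESeq2 (2 shared), 5 with the newer and 4 with the robust quasi-likelihood fit, 0 with glmTreat, 1 with either length correction, and 0 to 5 with 1 tumor left out. With glmTreat 673 genes had an unadjusted p under 0.05.

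With replicate number as a block, 14 genes and 0 of the 29 were called, and the same counts, 14 and 0, were found with length correction and block together. The numbers do not pair tumors: gene levels relative to the group mean correlated between same-numbered tumors at −0.17 to 0.0794, and 1 of 4 saline tumors correlated best with its own number. No libraries in a group were identical.

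Signs turned for Sc5d (0.00089) and Srebf1 (0.011) with upper-quartile scaling, and for Ebp with length correction (−0.012), length and GC (−0.015) and length with block (−0.065). With 1 tumor left out, Sc5d ran from −0.12 to 0.032 (above 0 without saline tumor 1, saline tumor 3 or treated tumor 4) and Ebp from −0.060 to 0.25 (below 0 without treated tumor 1 or 2).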
